A study of Mus musculus with 6 samples.

Results

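Chromatin that was called open only in proliferating cells was followed at gene starts. The material came from neural stem cell cultures of the adult mouse subependymal zone, taken from animals 10 weeks old that lacked both copies of Srr2, a Sox2 enhancer removed with CRISPR-Cas9 (Srr2del/del); every library compared here carried that deletion, and no wild-type library was used. Accessible DNA had been tagged by a transposase and sequenced (ATAC-seq) in 3 cultures after 2 days in vitro (2 DIV) on Matrigel with FGF (PROLIF) and in 3 cultures at 2+1 DIV, after 1 further day with 2% fetal bovine serum in place of mitogens (DIFF), with replicates numbered 1, 2 and 4 in each state. The series text instead speaks of neurospheres at 3 DIV for the proliferating state, and the sample labels were followed here. The values describe cultured stem cells and their early progeny rather than the tissue. Peaks of the 6 lists that overlapped by 1 bp or more were merged into 116783 regions on chromosomes 1 to 19, of which 34911 lay within 3 kb of a GENCODE M21 transcript start. The regions described here were selected on the calls themselves, as those called in every PROLIF library and never in DIFF; 411 regions met this rule near a start, or 1.18% of the regions near starts. The contrast between the states was therefore used to choose them and is given as a description, with no test. The mirror set, called in every DIFF library and never in PROLIF, held 808 regions (2.31%), and 18286 regions near starts had a peak in all 6 libraries and are called constant below.

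A gene can begin at several places. The main start, here that of an APPRIS principal transcript of a protein-coding gene, is commonly a CpG-rich promoter that is open in most cell types. Alternative starts give other transcripts of the same gene, often from within its introns, and noncoding starts belong to long noncoding RNAs, small RNAs and pseudogenes. Open chromatin beside a start can be a promoter or an enhancer that happens to lie close to it, and ATAC-seq does not tell them apart. AP-1 is a dimer of FOS and JUN family proteins; these factors are induced by growth factors through the ERK kinases and bind the palindrome-like site TGAGTCA, mostly at enhancers. FGF, a mitogen of neural stem cells, is such a growth factor, and serum holds others.

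Sequences of the summit and 50 bp on each side are shown for high-ranked members of each class that hold an AP-1 site there, because this site was in 24.3% of members and in 2.89% of constant regions, and for a pair of high-ranked members without it. They were read from the plus strand of GRCm38, with the letters TGAGTCA or the reverse complement TGACTCA in capitals.
Cttnbp2nl (main start, chr3:105055005-105055105): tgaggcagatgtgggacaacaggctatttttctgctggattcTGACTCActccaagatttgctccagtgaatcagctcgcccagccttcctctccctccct
Lypla2 (main start, chr4:135973623-135973723): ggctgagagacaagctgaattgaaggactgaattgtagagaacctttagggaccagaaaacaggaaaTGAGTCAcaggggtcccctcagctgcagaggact
Traf5 (alternative start, chr1:192061823-192061923): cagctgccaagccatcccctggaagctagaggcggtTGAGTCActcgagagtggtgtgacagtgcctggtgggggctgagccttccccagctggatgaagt
Col16a1 (alternative start, chr4:130050585-130050685): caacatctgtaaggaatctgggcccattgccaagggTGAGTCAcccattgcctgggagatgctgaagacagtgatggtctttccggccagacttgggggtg
Gm37545 (noncoding start, chr9:92537887-92537987): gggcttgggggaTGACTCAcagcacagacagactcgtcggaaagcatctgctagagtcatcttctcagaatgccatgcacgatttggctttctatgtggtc
Rasd2 (main start, chr8:75211671-75211771): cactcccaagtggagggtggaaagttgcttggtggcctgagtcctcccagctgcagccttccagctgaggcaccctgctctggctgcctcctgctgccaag
Plcb4 (alternative start, chr2:135984144-135984244): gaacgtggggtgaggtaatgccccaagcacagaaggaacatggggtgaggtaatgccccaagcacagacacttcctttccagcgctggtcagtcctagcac
The site was centred 5 bp before the summit in Cttnbp2nl and 11 bp before it in both Traf5 and Col16a1. In Lypla2 it was centred 20 bp after the summit, and in Gm37545 it was centred 35 bp before. Rasd2 and Plcb4 had no match within 100 bp of the summit.

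Most members did not sit on the main start of a coding gene. By nearest start, 85 members (20.7%) belonged to a main start, 159 (38.7%) to an alternative start of a coding gene and 167 (40.6%) to a noncoding start. Constant regions were distributed otherwise, with 64.3%, 19.6% and 16.1% in the same order, and DIFF-only regions had shares of 17.0%, 47.5% and 35.5%. These shares were not tested, since regions are not replicates. Only 71 members (17.3%) contained a start, against 72.4% of constant regions and 15.0% of DIFF-only regions. The other members were divided almost evenly between the upstream side (167) and the downstream side (173), and 202 (49.1%) lay over 1 kb away. The median distance was 980 bp. Of the summits, 47.2% fell in introns of coding genes (194 members), 110 lay between genes, 33 in noncoding exons, 25 in introns of noncoding genes, 22 in coding exons, 16 in 5′ UTRs and 11 in 3′ UTRs. The class depended on the annotation. With transcripts tagged basic alone, 33.7% of the members had a main start and 13.5% an alternative start.

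**Figure D1:**
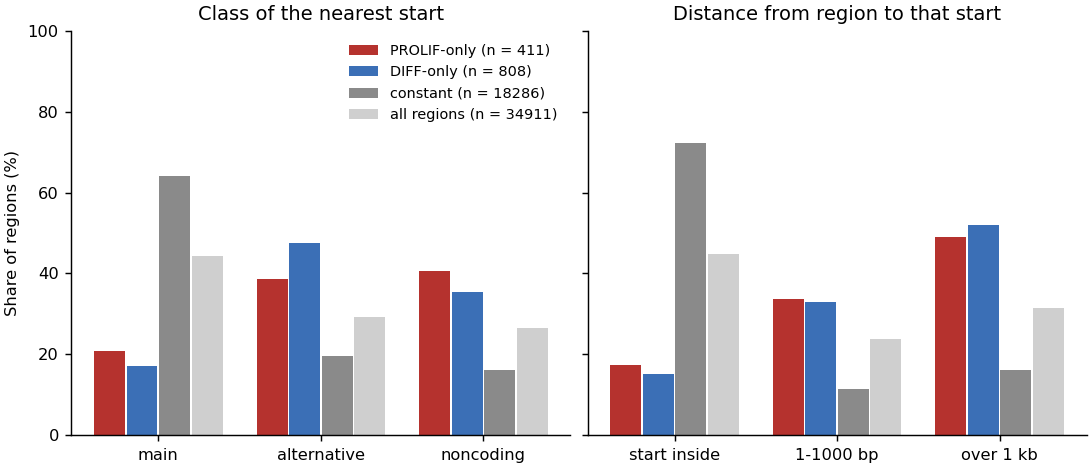
Share of regions (%) by class of the nearest start (left) and by distance to it (right), for PROLIF-only, DIFF-only, constant and all regions within 3 kb of a start. PROLIF-only and DIFF-only regions are both mostly away from main starts, and 72.4% of constant regions contain a start against 17.3% of PROLIF-only regions.

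The rule has edges in distance and in occupancy. Just inside 3 kb were AC140240.3 at 2961 bp, Dlg1 at 2984 bp and Lurap1 at 2990 bp, and just outside were regions at 3002, 3005 and 3016 bp from Gm42932, Gm6634 and Gm34391. Dlg1, which encodes a scaffold protein of cell junctions, had fold enrichments of 6.04, 4.82 and 5.20 in PROLIF 1, 2 and 4, and Gm42932 had 4.78, 4.57 and 3.90. A further 397 regions near starts had a peak in all 3 PROLIF and in 1 DIFF library, and 755 had one in 2 PROLIF and no DIFF libraries. In 20 members a DIFF peak lay within 200 bp of the edge without touching it, and in 95 it lay within 1 kb; the median gap to the nearest DIFF peak was 2744 bp.

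Members were of moderate height. Fold enrichment, the height of the peak over the local background as MACS2 gives it, had a median of 5.04 in PROLIF 1, 4.11 in PROLIF 2 and 4.16 in PROLIF 4, with highest values of 18.6, 15.5 and 19.8. PROLIF 1, the longest of the 3 PROLIF lists, was the highest of the 3 libraries in 256 members. Within each list, ranked by the authors' −log10 p so that 100 is the strongest peak, the members had a median percentile of 46.3, 33.7 and 34.0, and 56 members (13.6%) were above percentile 50 in all 3. The median number of reads at the summit, solved from fold enrichment and −log10 p, was 27, 20 and 18. The coefficient of variation of fold enrichment over the 3 libraries had a median of 15.8%, and the summits of the 3 libraries spread over a median of 59 bp. In the DIFF libraries the lists give no value for these places, only that no peak was called, so no fold between the states can be stated. The DIFF lists ranged from 70728 to 88039 peaks and the PROLIF lists from 60006 to 82741. The low end of the solved local background over all peaks of a list was taken as its percentile 1. It was 2.85 to 2.97 reads in PROLIF and 3.63, 2.96 and 6.01 in DIFF 1, 2 and 4. The rule asks for a call in every PROLIF library and in no DIFF library, so leaving out 1 library loosens it. The count was 489, 685 and 844 without PROLIF 1, 2 and 4. It was 505, 484 and 646 without DIFF 1, 2 and 4, where DIFF 4 is the library with the longest list. A rise alone therefore does not show that the count rested on 1 library.

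The strongest member was 148 bp upstream of the processed pseudogene Gm12094, in an intron of the coding gene Eml6 (chromosome 11, 29839689 to 29840227). Fold enrichment there was 18.6, 15.5 and 19.8 in PROLIF 1, 2 and 4, or 18.0 ± 2.24 (SD, n = 3), with the nearest DIFF peak 11716 bp away and an AP-1 site centred 57 bp before the summit. All 3 libraries were thus far above the median member. Other noncoding starts at the head of the ranking were Gm37545, with 7.45, 7.26 and 6.94, Gm49784, with 15.8, 10.5 and 9.88, and Gm34084, with 12.2, 11.7 and 9.38. Stambp-ps1, a processed pseudogene of the deubiquitinase gene Stambp, had its start inside a member and values of 13.4, 12.3 and 11.8. Reads of a retrocopy and of its parent gene can be hard to separate, so this position is uncertain. Of the 167 noncoding members, 43 were nearest to a lincRNA, 38 to a processed pseudogene, 26 to an antisense transcript and 10 to a miRNA gene; without strand, an antisense start cannot be told apart from the gene it overlaps.

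At alternative starts the 6 highest-ranked members lay at Plcb4, Slc25a29, Traf5, Manba, Itpr1 and Pxn. Plcb4 encodes a phospholipase C that acts below Gq-coupled receptors, and its intronic member, 749 bp from an alternative start, had fold enrichments of 13.4, 10.9 and 12.8. A second alternative start of Plcb4 had a member with 5.29, 4.31 and 4.68. Itpr1 encodes a receptor for IP3, the product of phospholipase C, and its member reached 8.53, 7.67 and 7.61. A constant region lay 233 bp and a DIFF peak 249 bp from the Itpr1 member. Pxn, for the focal adhesion adaptor paxillin, had 7.81, 7.36 and 7.60, the narrowest spread of these genes. Traf5, a signal adaptor of TNF receptors, had 14.5, 10.3 and 9.13 at the site printed above. Manba, for the lysosomal beta-mannosidase, held its alternative start inside the member, with 11.7, 9.90 and 10.2. Slc25a29, a mitochondrial carrier of basic amino acids, had the lower values 5.89, 4.80 and 5.91, and a DIFF peak lay 321 bp from it.

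Among main starts the highest ranks were held by regions upstream of the start. Cttnbp2nl had 9.14, 6.12 and 7.26 at 1469 bp upstream, Lypla2, for an acyl-protein thioesterase, had 8.78, 10.9 and 9.60 at 735 bp upstream, and Rasd2, for a Ras-like GTPase known from striatum, had 8.15, 5.51 and 6.30 at 2114 bp upstream. Lypla2 had a DIFF peak 151 bp from its edge. Tagln2, for an actin-binding transgelin, had 4.13, 3.27 and 3.19 within the gene. Only 21 of the 85 members at main starts contained the start itself. Of these, Klrb1c had 9.10, 7.61 and 10.3 and Klrb1a had 11.7, 7.11 and 7.54. Both encode lectin-like receptors known from natural killer cells, both lie on chromosome 6, and neither had a constant region at any start. Spp1, which encodes the secreted matrix protein osteopontin, had 8.29, 5.84 and 4.68 over its main start, with no constant region within 3 kb of any start of the gene and a DIFF peak 1609 bp away. Scn7a, for a sodium channel family member, had 8.51, 6.34 and 4.68. Cdkn1a, for the cyclin-dependent kinase inhibitor p21, and Ccnd3, for cyclin D3, had lower values: 4.05, 3.59 and 4.09, and 3.53, 2.71 and 3.20. Both of these cell cycle genes also had a constant region elsewhere at their starts, 2182 bp from the member in Cdkn1a and 2303 bp in Ccnd3. Zbtb7b, for a zinc finger factor of the T cell lineage, had 3.04, 3.01 and 3.32 over its start, and the chemokine gene Cxcl3 had 5.54, 4.31 and 3.64.

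By gene, 266 of 20807 protein-coding genes (1.28%) had a member within 3 kb of a start. Of these, 210 also had a constant region at a start, and 37 had no DIFF peak at any start. Counts in the fixed lists of genes were small and are read only against that 1.28%. Of 39 extracellular matrix genes 3 had a member: Lama2 and Lama4, which encode laminin alpha chains of basement membranes, and Fbln2, for fibulin 2, whose member lies at the start of 4930402H05Rik with fold enrichments of 9.32, 7.03 and 7.12. Lama4 had a pair of members, over its main start with 4.78, 3.81 and 5.20 and at an alternative start with 6.30, 4.57 and 5.20, and no constant region at either. A DIFF peak lay 247 bp from the member over the main start of Lama4. Lama2 had 5.29, 5.33 and 3.90 and likewise no constant region. Of 32 adhesion genes 1 had a member, Itga5, the alpha subunit of the fibronectin receptor, with 3.69, 3.45 and 3.43. The 30 cell cycle genes had 2, Cdkn1a and Ccnd3. Of 17 oligodendrocyte lineage genes 1 had a member: Sox6, with 2.91, 2.59 and 2.50. This was a weak call, with a lowest percentile over the PROLIF libraries of 1.88. None of the 12 AP-1 subunit genes, 31 ERK pathway genes, 27 neural stem cell and astrocyte genes, 14 mural and fibroblast genes or 16 ependymal genes had a member. All 27 neural stem cell and astrocyte genes and 10 of the AP-1 subunit genes had a constant region at a start, as did 65.4% of all protein-coding genes.

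The lists of other cell types were read in the same way, against 65.4% of all protein-coding genes with a constant region and 1.28% with a member. Endothelial markers had a constant region at 5 of 15 genes and a member at 2. Flt1, a VEGF receptor gene, had 8.88, 9.14 and 5.46, and Pecam1, an endothelial adhesion molecule gene, had 6.30, 5.33 and 6.24. Both members lay in introns at alternative starts, 88 bp downstream in Flt1 and 534 bp upstream in Pecam1. Flt1 also had a constant region at a start. Microglia and macrophage markers had a constant region at 2 of 15 genes and a member at 1, Cd68. Its region is nearest to Mir1934 and had 2.84, 3.14 and 2.68, with a lowest percentile over the PROLIF libraries of 5.46. Natural killer and lymphocyte genes had a constant region at 1 of 15 and a member at 2, Klrb1a and Klrb1c. In a bulk culture, more cells of a type and more open chromatin per cell cannot be told apart; the part of other cell types in these calls was not tested.

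The letters under the members differed from those under constant regions in the motifs they held. Within 100 bp of the summit, TGAGTCA was found on either strand in 100 of 411 members (24.3%). The same window held it in 4.20% of all regions near starts, in 2.89% of constant regions and in 1.49% of DIFF-only regions, and in 28.8% of the PROLIF-only regions farther than 3 kb from any start. Of 32851 RefSeq promoters (GRCm38, 250 bases before to 50 after the start), 5.20% held it. The share was 17.6% at main, 27.0% at alternative and 25.1% at noncoding starts, against 1.91%, 4.41% and 4.95% of constant regions of the same classes. By distance, it was 19.7% where the start lay inside, 21.7% within 1 kb and 27.7% beyond, against 2.14%, 4.20% and 5.34% of constant regions. Members with a start inside and an AP-1 site included Ndst1, Fkbp9, Tnni1 and Itpk1 at alternative starts. Of the 21 members with a main start inside, Slc6a21 alone held the site. These names were chosen after their values were seen. In 37 of the 100 the nearest match was centred within 20 bp of the summit, and in 74 within 50 bp; in constant regions with a match 27.8% were centred within 20 bp. There were 6 members with more than 1 match. Members with the site had a median mean fold enrichment of 5.14, and those without it 4.33.

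Among the coding genes with the site, the next highest-ranked members at main starts were at Isx, Steap2, Fcgr4 and Agbl2, and at alternative starts at Fam13b, Arntl2, Col16a1 and Ndst1, named here after their values were seen. Isx, for an intestinal homeobox factor, had fold enrichments of 6.78, 6.89 and 6.53 in PROLIF 1, 2 and 4 at 2003 bp upstream of its start. Steap2, for a metalloreductase, had 9.21, 7.94 and 5.98, and lay 1696 bp from the nearest constant region. Fcgr4, for an Fc receptor known from macrophages and neutrophils, had 7.55, 5.33 and 5.14 and the nearest constant region 13360 bp away. Fam13b had even values, 8.06, 8.12 and 8.84, with the nearest peak of any DIFF library 47478 bp away. Arntl2, for a circadian clock factor, had a mean of 6.54 ± 0.643 (SD, n = 3). Ndst1, for an enzyme that modifies the heparan sulfate chains to which FGF binds, had 11.1, 6.60 and 9.56, with PROLIF 2 the lowest. Col16a1 had 7.89, 4.95 and 7.24, also lowest in PROLIF 2.

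A few genes carried more than 1 member, besides Lama4 and Plcb4. Gdf15, for a stress-induced cytokine of the TGF-beta family, had a pair near its main start, with fold enrichments of 3.58, 4.62 and 4.22 in the nearer and 4.97, 3.78 and 2.79 in the farther. Nav3, for a neuron navigator protein that binds microtubules, had 3.77, 3.81 and 3.90 at its main start and 4.03, 4.31 and 3.12 over an alternative start. Psd3, for an exchange factor of ARF6, had 5.29, 4.57 and 5.46 over an alternative start and 2.89, 3.70 and 4.00 beside another.

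The AP-1 share differed between ways of choosing the members. It was 16.5% with the strongest 20000 peaks of each list, 21.1% within 1 kb of a start and 24.6% with peaks of q of 0.001 or less. Leaving out 1 library gave 18.6% to 23.3%, with the lowest share without PROLIF 4. The peak names carry numbers of the input data sets, which fall into a lower run (PROLIF 1 and 4, DIFF 1) and a higher run (PROLIF 2, DIFF 2 and 4). Within the lower run 14.5% of 1576 PROLIF-only regions held the site, and within the higher run 11.5% of 2024; each run holds 3 libraries, and the run and the number of libraries cannot be told apart here. Of the 316 members with no DIFF peak within 1 kb, 27.5% held it.

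**Figure D2:**
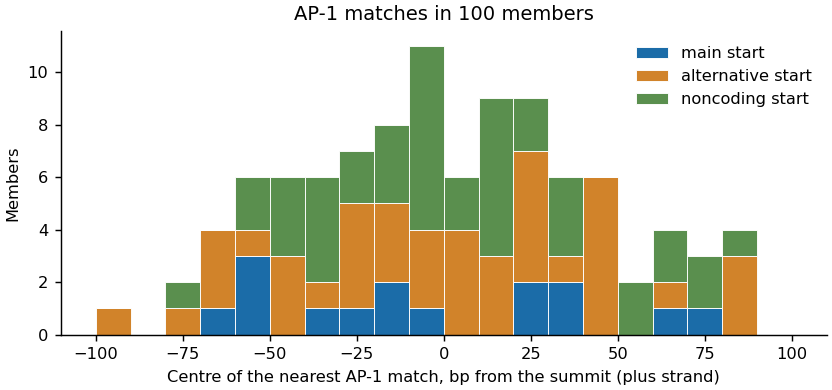
Number of members by the position of the nearest AP-1 match, in bp from the summit on the plus strand in bins of 10 bp, coloured by class of start. Of 100 members with a match, 74 have it centred within 50 bp of the summit.

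Other motifs were also unevenly held. The E-box CAGCTG was found in 32.6% of members and 16.3% of constant regions, and the E-box CAGATG in 23.8% and 9.50%; E-boxes are bound by bHLH factors. AP-1 or either of these E-boxes was present in 258 members (62.8%), against 25.7% of constant and 28.2% of DIFF-only regions. The SOX sequence ACAAAG was found in 23.6% of members, 21.8% of DIFF-only and 11.8% of constant regions. TTGGCA, the NFI half-site, was in 15.6% of members and 31.2% of DIFF-only regions. GGGCGG, bound by SP and KLF factors at CpG-rich promoters, was in 9.98% of members and 47.2% of constant regions, and CCGGAAG of ETS factors in 1.95% and 10.4%. DIFF-only regions also held them less often than constant regions, with 7.92% for GGGCGG and 0.99% for CCGGAAG. The remaining motifs were held by fewer members or less unevenly. GGAATG of TEAD factors was in 15.1% of members, 9.10% of constant regions and 19.1% of DIFF-only regions. In the same order, the second SOX sequence ACAATG was in 14.6%, 6.34% and 10.9%, and the third E-box CACGTG in 2.43%, 6.67% and 3.09%. GTTGCCA of RFX factors was found in 4.38% of members, ATGCAAA of POU factors in 3.89%, TGTGGTT of RUNX factors in 3.65% and TAATTA of homeodomain factors in 3.41%. AAGATGG of YY1 was in 2.92%, the cyclic AMP response element TGACGTCA in 1.95%, TGTTTAC of FOX factors in 1.70% and TTCCNGGAA of STAT factors in 0.487%. No member held CGCATGCG of NRF1, which 2.04% of constant regions and 0.124% of DIFF-only regions did. Base composition moved with these shares: the median GC content was 50.7% in members, 51.2% in DIFF-only and 62.2% in constant regions, and the median number of CpG in the window was 3, 2 and 14. Its part in the motif shares was not tested. Constant regions over 1 kb from a start, with a median GC content of 52.7%, held AP-1 in 5.34%. A match is a description of the letters and does not show that a factor was bound.

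**Figure D3:**
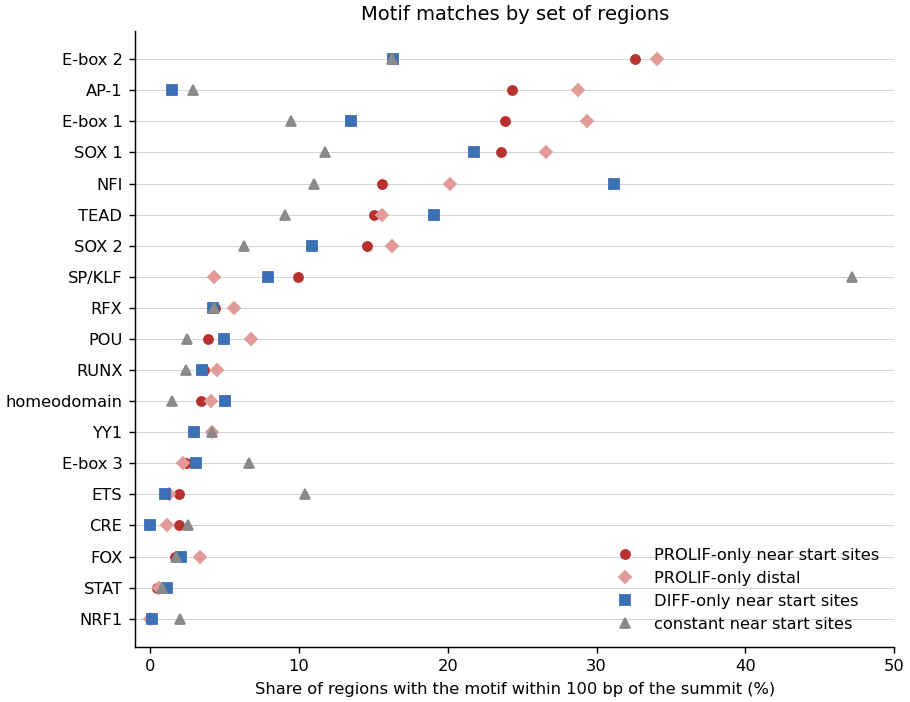
Share of regions (%) with each of 19 motifs on either strand within 100 bp of the summit, for PROLIF-only regions near and far from starts, DIFF-only regions near starts and constant regions near starts. E-box 1 has the letters CAGATG. E-box 2 has the letters CAGCTG. E-box 3 has the letters CACGTG. SOX 1 stands for the letters ACAAAG, and SOX 2 for a match to the letters ACAATG. PROLIF-only regions near and far from starts lie close together for AP-1 (24.3% and 28.8%), far above DIFF-only regions (1.49%).

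Of the 411 members, 145 (35.3%) had a constant region within 3 kb of the same start. That region did not always reach the start: in Cdkn1a, Ccnd3, Zbtb7b and Rasgef1a the start lay inside the member. A constant region at the same start was found for 54.1% of members at main, 34.6% at alternative and 26.3% at noncoding starts. The 142 constant regions concerned did not enter the rule, and their own change between the states was tested with limma on log2 fold enrichment over all 18286 constant regions near starts, with Benjamini-Hochberg adjustment over all of them. Of the 142, 3 were higher in PROLIF (2.11%) and 10 were lower (7.04%), against 4.87% higher and 3.25% lower of all constant regions. Their median difference was −0.11 (log2, PROLIF minus DIFF), against −0.01 for all. With the replicate number as a block, 5 were higher and 17 were lower. These were 3.52% and 11.97%, against 6.15% and 4.71% of all constant regions. Fold enrichment is set against reads in the neighbourhood, which may include those of the member. Whether those reads lowered the values was not tested. On the reads at the summit alone, an alternative chosen after seeing the data that leaves 133 regions, 15 were higher (11.3%) and 9 were lower (6.77%), against 11.9% and 10.2% of all, and the median was 0.01. The lower values on fold enrichment thus did not hold as a group on reads.

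All 3 regions called higher on fold enrichment were also among the 15 called higher on reads, where 9 were called lower. The largest difference on reads was by the Tagln2 member, at 1.82 (limma adjusted p = 2.55e-07). On fold enrichment it was 0.21 there (limma adjusted p = 0.4635), and Tagln2 is named here after its values were seen. The constant region 120 bp from the Itga5 member had fold enrichments, after quantile normalisation, of 7.65, 8.63 and 7.13 in PROLIF and 3.80, 4.44 and 4.25 in DIFF, so the groups did not overlap. The difference was 0.91 (SE 0.16, limma adjusted p = 0.00238). The other two lay by the noncoding starts Gm27883, with a difference of 0.84 (SE 0.11, limma adjusted p = 0.000231), and Gm37954, with 0.76 (SE 0.11, limma adjusted p = 0.000536). Of the 10 lower regions the largest difference was at the noncoding start 4930562A09Rik, with 4.72, 3.98 and 4.75 in PROLIF and 10.3, 9.03 and 10.6 in DIFF. The difference there was −1.16 (SE 0.15, limma adjusted p = 0.00023), and −1.06 on reads (limma adjusted p = 0.0011). Of the 10 called lower, 9 had a value on reads and 3 were called lower there too: 4930562A09Rik, Gm12925 and Gm49221. Cfap45, for a cilium protein, went from −0.48 on fold enrichment to 0.59 on reads (limma adjusted p = 0.0225). The region by the Col16a1 member printed above, at an alternative start of a collagen gene, changed by −0.51 (limma adjusted p = 0.03), but by −0.16 on reads (limma adjusted p = 0.537). The region by the Cttnbp2nl member changed by −0.56 (limma adjusted p = 0.00296), from 17.1, 14.9 and 15.3 in DIFF to 9.12, 12.3 and 10.8 in PROLIF, and had no value on reads.

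**Figure D4:**
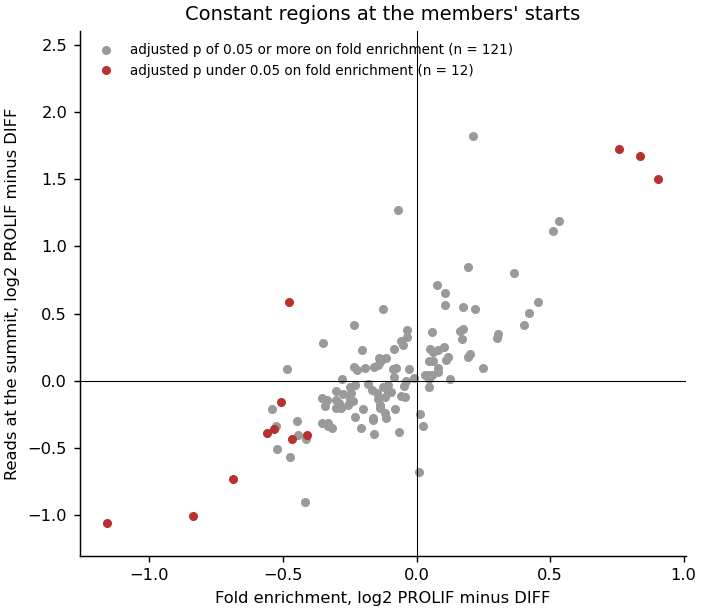
Log2 difference between PROLIF and DIFF in fold enrichment (x axis) and in reads at the summit (y axis) for the 133 constant regions at the members' starts with a value on both; red marks a limma adjusted p under 0.05 on fold enrichment. The 3 red points at the upper right are the regions by Itga5, Gm27883 and Gm37954, and 1 red point, the region by Cfap45, changes sign between the measures.

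The AP-1 site was also examined in regions called in both states. Among the 18286 constant regions near starts, 529 held it, and 121 of these (22.9%) were higher in PROLIF by limma and 9 (1.70%) lower, with a median difference of 0.15. Of the 17757 constant regions without the site 4.34% were higher and 3.29% lower, with a median of −0.02. On reads, 176 of 506 regions with the site (34.8%) were higher, against 11.9% of all, and 24 lower. The constant regions share the 6 libraries with the members, so this is the same cultures seen at other places rather than a repeat of the experiment.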

How the data were processed

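ATAC-seq libraries of 3 PROLIF and 3 DIFF cultures of Srr2del/del cells were compared. According to the study's methods, the authors trimmed reads with Cutadapt and Trimmomatic, aligned them with Bowtie2 to GRCm38, marked duplicate reads (Picard) and called narrow peaks library by library (MACS2, no model, FDR of 0.05); versions, shift and extension are not given in the sources used here, so the offset of the transposase cut is unknown. The deposited lists hold, per peak, an integer score, the fold enrichment over local background (a ratio), −log10 p and −log10 q. The deposited −log10 values were used for ranks within a list, and the deposited score was not used. Library depth is unknown here; reads at the summit and background were solved from fold enrichment and −log10 p (for −log10 p under 200), with Poisson tails.

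Peaks were merged over 1 bp and put with the nearest GENCODE M21 start; ties went to main, then alternative, then noncoding. Motifs (19, all letters as printed, both strands) were searched within 100 bp of the summit of the best-ranked peak among the libraries that define a set (PROLIF for the members); no motif searched contains another. The members and the gene and motif lists were chosen with earlier results of these data known. Named members are the 6 of each class with the highest lowest percentile over the 3 PROLIF libraries, those at genes of the 14 lists and those over main starts, at most 40 in all by that percentile, so Sox6 and Cd68 are named from their lists beyond that number. Results of 2 of the lists are not reported here. The constant regions were tested with limma 3.58.1 (R 4.3.3), with a trend on log2 fold enrichment, quantile normalised, no filter on low values and no pseudocount. Other steps used Python 3.11.15, pandas 2.3.3 and pysam 0.24.0. The study names the replicates as independent cultures and no source ties a number to an animal. It also speaks of paired profiling of the same cultures in both states, so same-numbered libraries may share a culture. The functions were tested on data with planted regions and changes. Alternatives are given at the end; the X chromosome lies outside the rule.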

Additional observations from a re-analysis of the deposited data

Results flagged for a closer look

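The X chromosome, which the rule leaves out, had 873 regions near starts. Of these, 10 had a peak in all 3 PROLIF and no DIFF library, and 10 had a peak in all 3 DIFF and no PROLIF library. They are listed because they come from data that no comparison above uses. Groups of 3 libraries were not searched for single outlying values.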

How the results depend on the processing

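Of 184 alternative values, 137 stayed within 1.5 times the count or within the 95% exact binomial interval of the share as reported and 47 moved beyond it. The interval treats members as independent draws, which they are not, so it is only a yardstick. Counts were compared without regard to how many regions an alternative tested. The balance at the members' starts turned over on reads at the summit: 15 higher and 9 lower, with a median of 0.01 (log2, PROLIF minus DIFF), against 3 and 10 with a median of −0.11 on fold enrichment. These were 11.3% and 6.77% on reads, against 11.9% and 10.2% of all constant regions. The number of members was 411; it was 209 within 1 kb of a start, 1563 with a replicate block (a peak in PROLIF and not in DIFF in at least 2 same-numbered pairs and the opposite in none), 1576 and 2024 within the lower and higher input data numbers (added after seeing the data), and 484 to 844 leaving out 1 library. The AP-1 share was 16.5% with the strongest 20000 peaks of each list, 16.9% with the replicate block, 17.3% with 50 bp on each side of the summit, 14.5% and 11.5% within the input data numbers, and 18.6% to 23.3% leaving out 1 library. The main share was 25.1% with the strongest 20000 peaks; with basic transcripts main, alternative and noncoding shares were 33.7%, 13.5% and 52.9%; with the highest class within 3 kb the main and alternative shares were 31.9% and 31.4%. Leaving out 1 library gave 19.8% to 21.8%, 38.1% to 40.2% and 39.3% to 41.5% for the classes. The share with a constant region at the same start was 29.4% with lists of equal length, 7.36% with the strongest 20000 peaks, 19.5% where peaks had to cover 50% of the region, 18.2% within 1 kb, 41.0% with basic transcripts, 25.6% for members with no DIFF peak within 1 kb, and 33.4% to 36.6% leaving out 1 library.

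For the constant regions at the members' starts, those higher in PROLIF were 3 as reported (2.11%, against 4.87% of all constant regions). They were 5 with median centring (3.52%, against 5.25%) and 8 with −log10 p as the measure (5.63%, against 8.31%). The replicate block gave 5 higher (3.52%, against 6.15%) and 17 lower (11.97%, against 4.71%). Leaving out 1 library gave 3 to 7 higher and 5 to 17 lower. Without PROLIF 4 the counts were 7 higher and 17 lower of 278 (2.52% and 6.12%, against 3.64% and 2.57% of all). Without DIFF 2 they were 3 and 5 of 174 (1.72% and 2.87%, against 3.42% and 1.52%). Of constant regions with AP-1, 17 with −log10 p and 24 on reads were lower, and leaving out 1 library gave 93 to 107 higher and 5 to 10 lower. Of all constant regions, 1520 with −log10 p and 1999 on reads were higher and 1149 and 1721 lower; leaving out 1 library gave 587 to 704 higher and 283 to 507 lower. The cause was not tested in any of these, beyond the fewer or more libraries, peaks or starts that an alternative uses. Same-numbered libraries did not clearly deviate together over constant regions. Correlations were 0.048, 0.18 and −0.042 for numbers 1, 2 and 4, and −0.18 to 0.14 between different numbers. The highest was that of number 2, but PROLIF 1 correlated best with DIFF 4. So few libraries cannot exclude that the numbers pair them. The main fit left such a pairing out, and the replicate block is the alternative that allows for it. What depth limits is the absence of a DIFF peak, which says only that none was called.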
